A study of Mus musculus with 70 samples.

Results

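Cell junction genes were followed across mouse fibroblasts, hepatocytes and colonic epithelium in which an active kinase can be switched on. The genes are 7 claudins (Cldn1, Cldn2, Cldn3, Cldn4, Cldn7, Cldn8 and Cldn15), Epcam, and the classical cadherins Cdh1 (E-cadherin) and Cdh2 (N-cadherin). They were taken by gene symbol from the deposited table of FPKM values, which are reads scaled to transcript length and to library depth. All 10 were found, each in 1 row, among 21859 genes. Because of the length scaling, levels can be set side by side between genes. Between libraries FPKM values also carry shifts of all genes, so results under other scalings are given as well.

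Claudins are membrane proteins that polymerise into the strands of tight junctions and set what may pass between epithelial cells. Cldn2 and Cldn15 form paracellular pores for cations, whereas Cldn1, Cldn3, Cldn4, Cldn7 and Cldn8 are mostly counted as sealing or anion-selecting members. Cadherins hold adherens junctions together: E-cadherin is the cadherin of epithelia, N-cadherin that of fibroblasts and neurons, and hepatocytes carry both. Epcam, an epithelial surface glycoprotein, binds Cldn7 in intestinal epithelium and keeps it at the membrane.

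Doxycycline switches on a constitutively active MEK1 (caMEK1), which drives ERK and is the study's model of oncogene-induced senescence, or a constitutively active MKK6 (caMKK6), which drives p38 and is its model of stress-induced senescence. The study compared the cells that carry the active kinase with the cells around them in chimeric mice, where mCherry marks the former and GFP the latter. Hepatocytes and colonic epithelial cells of both colours were sorted by flow cytometry, and mouse embryonic fibroblasts (MEFs, from embryos of day 13.5) were the cultured counterpart. All libraries are labelled male and C57BL/6, and the promoter that drives each kinase is not given in the sources used here. The MEFs gave 8 groups of 3 libraries: for each kinase, untreated cells of day 2 and cells grown in 2 µg/mL doxycycline for 2, 4 or 7 days. Each tissue gave 9 groups of 2 or 3 libraries from 16 animals, those on doxycycline taken at day 7. For control, caMEK1 and caMKK6 mice these are GFP cells of mice without doxycycline, and GFP and mCherry cells of mice on doxycycline. In control mice neither transgene exceeded 0.0790 FPKM. Drinking water of caMKK6 and control mice held 2 mg/mL doxycycline and that of caMEK1 mice 0.2 mg/mL, so kinase and dose cannot be told apart in comparisons that cross them.

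Depth, read back from the FPKM values, lay between 10499019 and 17150052 reads in genes of known length for MEFs, between 9096993 and 14297505 for liver and between 6358587 and 16647561 for colon. The tissues carried their defining transcripts: albumin (Alb) at 17180 FPKM or more in liver, villin (Vil1) at 158 to 393 FPKM in colon and Col1a1 at 57.5 to 893 FPKM in MEFs. The MEK1 transgene stood at 1.94 to 4.04 FPKM in caMEK1 MEFs without doxycycline and at 460 to 1169 FPKM with it. In caMKK6 MEFs the MKK6 transgene stood at 0.407 to 3.17 and at 130 to 1209 FPKM. In colon mCherry cells the transgenes reached 235 to 288 FPKM (MEK1) and 1214 to 2648 FPKM (MKK6), but in caMEK1 liver mCherry cells MEK1 reached only 5.55 to 14.1 FPKM. Some libraries stand apart. Of the 12 caMKK6 MEF libraries, 5 held over 5 FPKM of the MEK1 transgene (up to 16.5). The control GFP hepatocytes on doxycycline held 678 and 750 FPKM of mCherry RNA. GFP cells of kinase mice on doxycycline also held transgene RNA. MEK1 stood at 12.28 and 28.75 FPKM in colon and at 0.133 to 0.238 in liver. MKK6 stood at 8.50 to 116 FPKM in colon and at 1.51 and 30.9 in liver. Control colon animal 1 on doxycycline (replicate 1 in both colours) differed from the other such animal in both colours in several claudins. For several colon results that rest on it, the value without it is also given. Comparisons with control GFP cells and colour gaps against control are covered only in part.

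Colon expressed 8 of the 10 genes above 1 FPKM in every library, liver 5 and MEFs 1 (Cdh2). Cldn7, Cldn8 and Epcam were colonic: Epcam ran from 560 to 861 FPKM in colon and stayed at or under 0.807 FPKM in liver. Cldn1 and Cdh2 were the reverse, with at most 0.0412 and 0.145 FPKM in colon. Along the order of the 26 group means, between 20 and 23 of the 25 neighbouring pairs overlapped in their libraries, depending on the gene, so the steps that stand clear are few. For Cldn4 they set caMEK1 colon mCherry cells (454 ± 198 FPKM, SD, n = 2) above caMKK6 colon mCherry cells (136 ± 30, n = 3), and these above caMEK1 colon GFP cells on doxycycline (63.1 ± 24.7, n = 2). The caMKK6 MEFs of day 4 came next, at 33.4 ± 6.5 FPKM (n = 3), which overlapped with untreated colon epithelium. For Cdh1 the clear steps ran from colon to liver, from the other liver groups to kinase GFP cells on doxycycline, and from those to caMEK1 MEFs of day 4. Further clear steps ran from day 4 to day 7 in caMEK1 MEFs and from treated caMEK1 MEFs to all other MEFs.

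**Figure D1:**
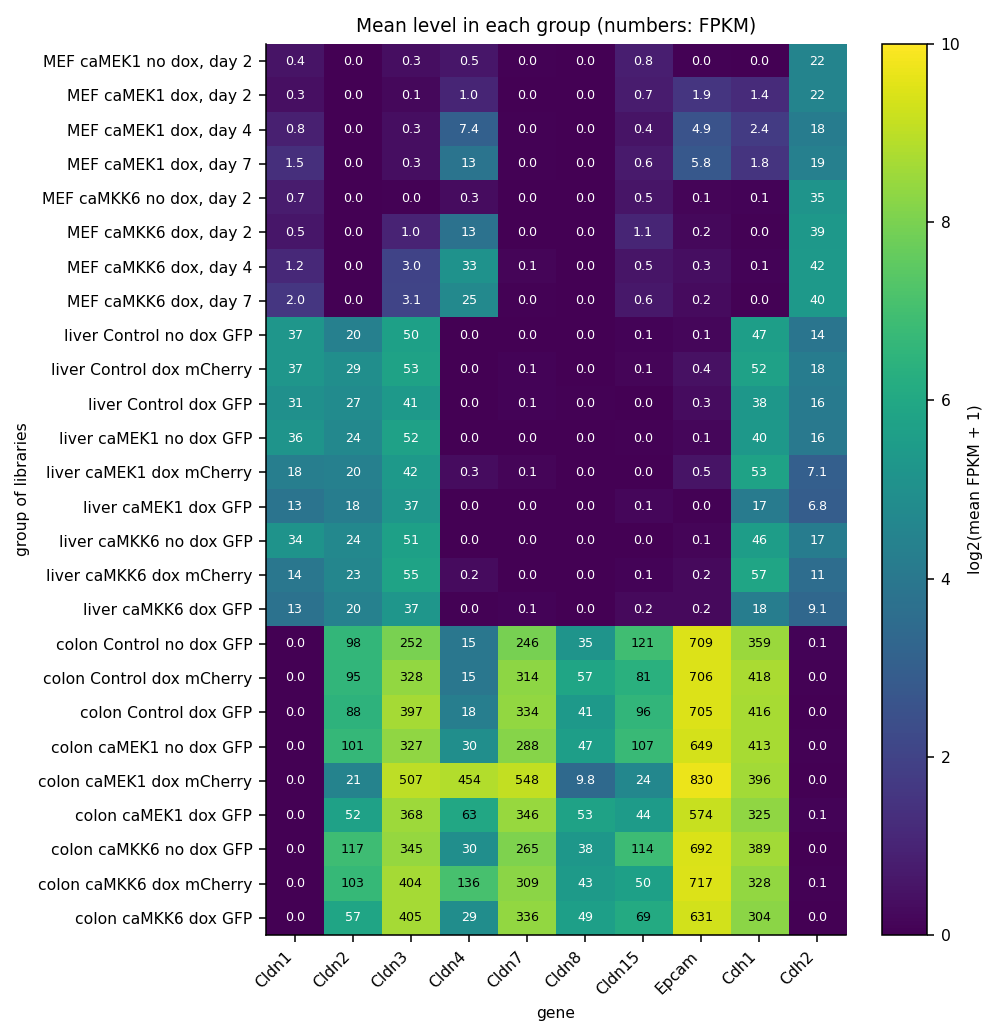
Mean FPKM of each of the 10 genes (columns) in each of the 26 groups of 2 or 3 libraries (rows), with the colour on a log2(mean FPKM + 1) scale and the mean printed in each cell. Colon rows are filled for 8 genes and liver rows for 5, while in MEFs Cdh2 is present throughout. Among MEF rows, Cldn4, Cldn3, Cldn1, Cldn15, Epcam and Cdh1 pass 1 FPKM only with doxycycline, Cldn15 only in caMKK6 MEFs of day 2.

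The 250 bases before the start of Cldn4, Cldn3 and Epcam are shown since Cldn4 and Cldn3, neighbours in the genome, both rose in caMKK6 MEFs and Epcam rose in caMEK1 MEFs. The sequences come from RefSeq on GRCm38.p6, and the strand given is the gene's. Capitals mark the letters TGANTCA (the AP-1 core) and CAGGTG (an E-box that Snail and Zeb proteins can bind), on either strand. Cldn4 lies at chr5:134946935-134947184 (minus strand), Cldn3 at chr5:134985964-134986213 (plus strand) and Epcam at chr17:87635729-87635978 (plus strand).
Cldn4: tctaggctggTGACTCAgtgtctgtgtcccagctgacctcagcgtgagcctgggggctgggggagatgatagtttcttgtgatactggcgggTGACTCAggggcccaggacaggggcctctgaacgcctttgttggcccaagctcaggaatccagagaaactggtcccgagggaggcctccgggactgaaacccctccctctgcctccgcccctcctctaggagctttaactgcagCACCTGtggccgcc
Cldn3: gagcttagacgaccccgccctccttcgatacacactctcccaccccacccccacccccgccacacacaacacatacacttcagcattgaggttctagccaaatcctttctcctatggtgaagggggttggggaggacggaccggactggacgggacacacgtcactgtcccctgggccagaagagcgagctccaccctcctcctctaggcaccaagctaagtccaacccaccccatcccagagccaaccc
Epcam: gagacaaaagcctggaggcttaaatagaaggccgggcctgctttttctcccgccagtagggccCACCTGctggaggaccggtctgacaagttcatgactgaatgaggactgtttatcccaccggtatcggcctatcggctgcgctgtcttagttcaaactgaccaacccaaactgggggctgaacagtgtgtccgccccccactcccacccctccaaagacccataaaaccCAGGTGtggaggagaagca
The Cldn4 window holds 2 TGANTCA matches, 240 and 158 bases before the start, and 1 CAGGTG match 14 bases before it. The Epcam window holds 2 CAGGTG matches, 187 and 19 bases before the start, and no TGANTCA. The Cldn3 window holds neither. Among members whose windows are not shown, only Cldn15 holds TGANTCA (1 match, 214 bases before the start), and none holds CAGGTG. Among 32851 promoters of the same length, 6.75% hold TGANTCA and 17.2% hold CAGGTG. Of 12 motifs searched in the 7 genes with an entry, these 2 are shown; a match is a run of letters, not a measured binding site. Cldn3 and Cldn4 are neighbours on chromosome 5, with 39279 bases and no protein-coding gene between them.

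In MEFs Cldn4 rose under both kinases. Epcam and E-cadherin rose in caMEK1 MEFs, and Cldn3 rose in caMKK6 MEFs. Cldn2, Cldn7 and Cldn8 stayed below 1 FPKM in every MEF library and were not tested. The other 7 genes were tested with limma on log2(FPKM + 1) over all 11347 expressed genes, with Benjamini-Hochberg adjustment, and a gene is called at an adjusted p under 0.05. The log2 values of low genes understate their change on this scale. The untreated MEFs were all taken at day 2, so at days 4 and 7 doxycycline and time in culture cannot be told apart. The labels do not say whether MEF replicates are separate cultures, so p-values measure only the spread between these libraries, which may be technical.

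Cldn4, a claudin of tight epithelia that is low in fibroblasts, stood in untreated caMKK6 MEFs at 0.293, 0.195 and 0.338 FPKM. With doxycycline it reached 15.3, 8.80 and 14.4 FPKM at day 2, 40.9, 30.2 and 29.1 at day 4, and 27, 32.8 and 15.0 at day 7. Every treated library stood above every untreated one, and the highest day was day 4, whose values overlapped with those of day 7. In reads this was 20 in the 3 untreated libraries together against 2362 at day 4, a 121-fold difference of mean levels. The limma estimates were 3.41 ± 0.32, 4.74 ± 0.32 and 4.28 ± 0.32 log2 units (SE; adjusted p = 3.9e-07, 4.5e-09 and 1.4e-08).

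In caMEK1 MEFs Cldn4 moved later. The untreated libraries held 0.335, 0.198 and 0.986 FPKM and the day 2 libraries 0.738, 0.437 and 1.93, which overlapped (log2 0.40 ± 0.32, adjusted p = 0.34). At day 4 they held 5.74, 5.19 and 11.2 FPKM and at day 7 11.2, 10.5 and 18.3 FPKM, all above the untreated range. The rise was 2.44 ± 0.32 log2 units at day 4 (adjusted p = 1.8e-06) and 3.25 ± 0.32 at day 7 (adjusted p = 3.3e-08), or 14.6-fold and 26.4-fold in mean level. The caMEK1 change minus the caMKK6 change, tested as a difference, was -3.00 ± 0.45 at day 2 (adjusted p = 4.8e-05) and -2.30 ± 0.45 at day 4 (adjusted p = 0.00045). At day 7 it was -1.03 ± 0.45 (adjusted p = 0.076). That last difference passed with the replicate number as a block within genotype (adjusted p = 0.0056), and the differences at days 2 and 4 did not pass with voom on the recovered reads (-4.32, adjusted p = 0.062, and -2.74, adjusted p = 0.17).

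Cldn3, the neighbour of Cldn4 and a sealing claudin of gut and liver, was at 0, 0 and 0.108 FPKM in untreated caMKK6 MEFs, which is 2 reads in all. It reached 0.823, 1.14 and 1.06 FPKM at day 2, 3.65, 3.12 and 2.24 at day 4, and 3.69, 3.74 and 1.94 at day 7. With 2 reads in the reference no fold is given. The limma estimates were 0.95 ± 0.16, 1.94 ± 0.16 and 1.96 ± 0.16 log2 units (adjusted p = 0.00019, 6.9e-08 and 6.4e-08). In caMEK1 MEFs Cldn3 lay between 0.0532 and 0.472 FPKM in all 12 libraries, treated or not. The caMEK1 minus caMKK6 difference of Cldn3 passed at day 2 (-1.15 ± 0.23, adjusted p = 0.0011), day 4 (-1.96 ± 0.23, adjusted p = 1.5e-06) and day 7 (-1.98 ± 0.23, adjusted p = 1.5e-06). Without the 5 caMKK6 libraries that held the MEK1 transgene, the day 2 rise of Cldn3 was 0.87 and did not pass (adjusted p = 0.084), nor did the day 2 difference between kinases (-1.06, adjusted p = 0.079); the rises at days 4 and 7 did.

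Epcam and Cdh1 went with the other kinase. In untreated caMEK1 MEFs Epcam stood at 0.0308, 0.0545 and 0.0371 FPKM, 4 reads in all. It reached 1.89, 1.54 and 2.29 FPKM at day 2, 4.90, 4.50 and 5.43 at day 4, and 6.85, 5.51 and 5.11 at day 7. The groups did not overlap on any day, and most of the gain was reached by day 4 (limma log2 1.47 ± 0.13, 2.51 ± 0.13 and 2.70 ± 0.13, adjusted p = 2.4e-08, 4.2e-12 and 1.4e-12). In caMKK6 MEFs Epcam lay at or under 0.516 FPKM in every library.

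E-cadherin (Cdh1) was at 0, 0 and 0.0356 FPKM in untreated caMEK1 MEFs, 2 reads in all. It stood at 0.762, 1.49 and 1.83 FPKM at day 2, 2.22, 2.47 and 2.39 at day 4 (475 reads), and 1.75, 1.66 and 2.08 at day 7. These groups were clear of the untreated one, and the day 4 values lay above those of day 7 without overlap (limma log2 1.20 ± 0.11, 1.73 ± 0.11 and 1.48 ± 0.11, adjusted p = 6.1e-08, 1.4e-10 and 1.2e-09). In caMKK6 MEFs Cdh1 did not exceed 0.117 FPKM. The difference between the kinases passed on each day for Cdh1 (1.25, 1.73 and 1.53, adjusted p = 9.4e-06, 6e-08 and 3.5e-07) and for Epcam (1.38, 2.28 and 2.55, adjusted p = 1.5e-05, 9.9e-09 and 2.1e-09).

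N-cadherin (Cdh2) was not called lower in caMEK1 MEFs. In caMEK1 MEFs Cdh2 held 20.6, 20.8 and 24 FPKM without doxycycline and 14.9, 18.5 and 25.0 FPKM at day 7, ranges that overlapped (log2 -0.18 ± 0.16, adjusted p = 0.34). At day 4 it held 16.6, 16.4 and 19.8 FPKM, below every untreated value (-0.30 ± 0.16, adjusted p = 0.13, and 0.034 with the block within genotype). The change at day 4 minus that in caMKK6 MEFs was -0.54 ± 0.23 (adjusted p = 0.076, and 0.013 with the block). Cdh2 remained the more abundant of the pair in every MEF library. The caMKK6 MEFs had more Cdh2 before any treatment, at 40.7, 33.3 and 31.3 FPKM, and the untreated lines differed by -0.66 ± 0.16 log2 units (adjusted p = 0.02). This was the only member called between the untreated lines, where 6.48% of all genes were (2.4% lower in caMEK1). It did not pass in 3 of the 6 runs that left out 1 library, without caMEK1 replicate 1 or 2 or caMKK6 replicate 1 (adjusted p up to 0.093), nor without the libraries that held the MEK1 transgene (-0.87, adjusted p = 0.055).

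Cldn1, a claudin of skin and liver, made a smaller late step under both kinases. In caMEK1 MEFs it went from 0.531, 0.284 and 0.454 FPKM to 1.37, 1.29 and 1.96 at day 7, and in caMKK6 MEFs from 0.991, 0.570 and 0.535 to 2.55, 1.86 and 1.47. Both groups of day 7 lay clear of their untreated libraries (limma log2 0.83 ± 0.18, adjusted p = 0.00041, and 0.79 ± 0.18, adjusted p = 0.0014). At day 4 the estimates were 0.38 (adjusted p = 0.074) and 0.37 (adjusted p = 0.096), and with the block within genotype they passed (adjusted p = 0.00044 and 0.00078). Without the libraries that held the MEK1 transgene the caMKK6 estimate at day 7 was 0.56 and did not pass (adjusted p = 0.11). Cldn15 stayed between 0.188 and 1.51 FPKM in all MEFs. At day 4 in caMEK1 MEFs it was at -0.30 ± 0.17 (adjusted p = 0.15; 0.043 with the block within genotype). Its single call without the block, at day 2 in caMKK6 MEFs (0.48 ± 0.17, adjusted p = 0.035), was lost at a pseudocount of 0.1 (adjusted p = 0.054), without the filter (0.051), with voom (0.064), without either of caMKK6 untreated replicates 2 and 3, and without the libraries that held the MEK1 transgene.

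**Figure D2:**
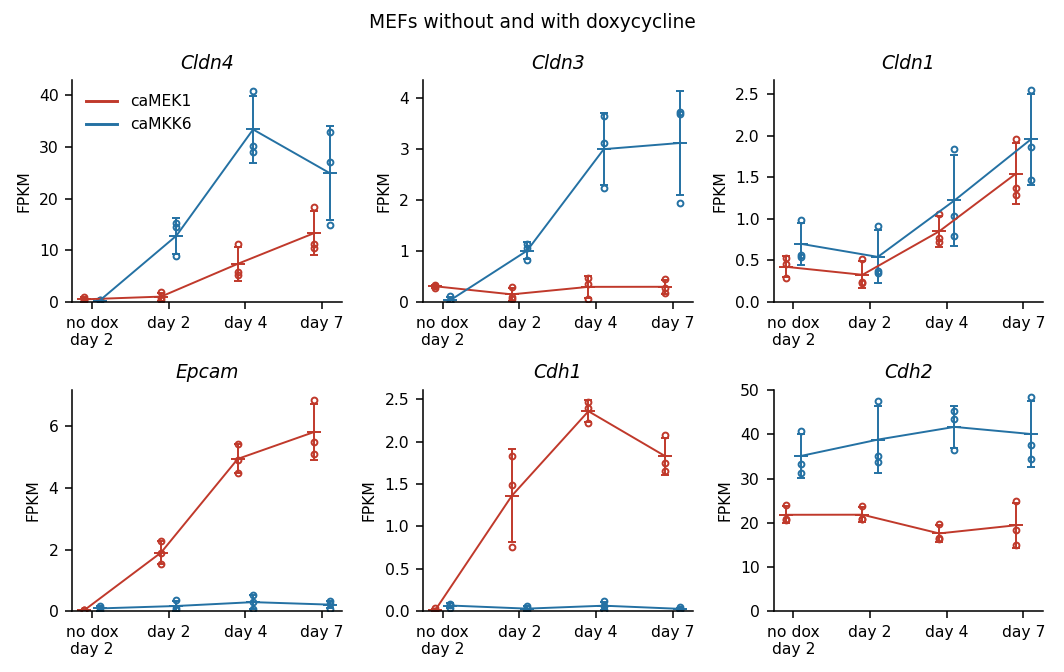
FPKM of Cldn4, Cldn3, Cldn1, Epcam, Cdh1 and Cdh2 in untreated MEFs of day 2 and after 2, 4 and 7 days of doxycycline, in red for caMEK1 and blue for caMKK6, with 1 circle per library and lines through the means with SD (n = 3). Cldn4 and Cldn3 are highest in the blue lines, Epcam and Cdh1 climb in the red lines only, and Cdh2 lies higher in blue at every time.

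As counts without the block, 2, 3 and 4 of the 7 tested members rose in caMEK1 MEFs at days 2, 4 and 7, and none fell. Of all genes, 39.3%, 57.8% and 62.1% were called on these days, 19.5%, 28.5% and 33.4% as higher. In caMKK6 MEFs 3, 2 and 3 rose and none fell, against 39.2%, 44.8% and 40.8% of all genes called and 14.3%, 17.1% and 16.8% higher. The share of members called was thus near or under that of all genes, and all of these calls were rises. Cldn1, Cldn3, Cldn4, Epcam and Cdh1 stood below 1 FPKM in every untreated library. They met the expression filter only through libraries on doxycycline and could hardly fall, so the lack of falls carries no weight. With the block within genotype, caMEK1 MEFs of day 4 added falls of Cdh2 and Cldn15 and a rise of Cldn1. The tested members' median log2 change at day 7 was 0.83 in caMEK1 MEFs, against 0.03 over all genes, and 0.18 in caMKK6 MEFs, against -0.04. These medians leave out Cldn2, Cldn7 and Cldn8 and depend on the same filter, so they do not measure a shift of the family. The difference between kinases was called for 4, 4 and 3 of 7 members (23.5%, 35.2% and 37.8% of all genes).

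Other junction genes of the MEFs moved in both directions (levels are means ± SD, n = 3). Among 17 tight junction partners, such as scaffolds and junctional adhesion molecules, 8 rose and 3 fell in caMEK1 MEFs at day 7, near the 62.1% called among all genes. The coxsackie and adenovirus receptor Cxadr rose by 1.33 ± 0.16 log2 units and the cingulin-like protein Cgnl1 by 1.19 ± 0.22, and Ildr2 fell by 1.06. In caMKK6 MEFs 5 of the 17 rose and none fell, against 40.8% of all genes called (16.8% higher), with Cxadr at 0.78 ± 0.16 and the adhesion molecule F11r (JAM-A) at 0.77 ± 0.24. Both membrane-anchored inhibitors of matriptase, the protease that cleaves EpCAM, rose in caMEK1 MEFs, Spint1 from 0.182 ± 0.0758 to 3.80 ± 0.756 FPKM and Spint2 from 1.27 ± 0.430 to 4.59 ± 1.48. Of these Spint2 rose in caMKK6 MEFs (log2 0.87 ± 0.21), Spint1 was not called there, and the difference between kinases for Spint1 was 2.11 ± 0.15 (adjusted p = 2.2e-09).

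Among factors known to repress E-cadherin, Snai1 stood above 10 FPKM in the group means of both lines. Of 6 factors of epithelial to mesenchymal transition, 2 fell in caMEK1 MEFs at day 7 and none rose, a share under the 62.1% called among all genes. Snai1 went from 43.5 ± 5.75 to 17.3 ± 4.19 FPKM and Zeb2 from 5.16 ± 0.469 to 3.86 ± 0.508. In caMKK6 MEFs Snai1 also fell, by 0.82 on the log2 scale, with Twist1, while Twist2 rose from 38.5 ± 5.91 to 76.7 ± 25.0 FPKM. The epithelial factor Klf4 fell under both kinases, by 1.10 and 0.92 on the log2 scale, and the desmosomal plaque gene Dsp rose under both, by 1.55 ± 0.32 and 1.31 ± 0.32. Of the other cadherins, mesenchymal Cdh11 fell under both (by 1.29 and 0.51).

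Endothelial junction genes rose in caMEK1 MEFs as well. Cldn5 was at 0 in the untreated libraries and at 3.59 ± 2.14 FPKM at day 7 (adjusted p = 6.5e-07), and Cdh5 (VE-cadherin) went from 0.0913 ± 0.0468 to 2.11 ± 0.461 FPKM. The 6 endothelial markers, which include these 2 genes, summed to 2.23 to 2.91 FPKM without doxycycline and 6.48 to 11.5 at day 7. Of the 4 tested, 3 rose, where 33.4% of all genes were called higher. Tek and Pecam1 were not tested, as they stayed at or under 0.415 and 0.368 FPKM in every MEF library. Cldn5 and Cdh5, near 0 in untreated caMEK1 MEFs, could hardly fall, so this count is not a fair match for that share. The fibroblast markers summed to 865 to 1136 FPKM in untreated caMEK1 MEFs and 241 to 338 at day 7, and in caMKK6 MEFs to 1076 to 1330 and 921 to 1413. The cholangiocyte list summed to 393.5 to 500.4 FPKM in untreated caMEK1 MEFs and 5445 to 6369 at day 7, mostly Spp1 (425 ± 71.5 to 5830 ± 478 FPKM), and to 105.6 to 273.9 and 179.7 to 395.1 in caMKK6 MEFs. The enteroendocrine list, here nearly all Cck, went from 4.67 to 9.47 FPKM to 98.7 to 143 in caMEK1 MEFs. In caMKK6 MEFs it went from 14.7 to 33.2 to 70.4 to 112 FPKM. Its other genes each stayed at or under 0.397 FPKM in every MEF library. Hepatocyte and goblet markers stayed at or under 0.550 FPKM in sum in every MEF library, and in caMEK1 MEFs the keratins Krt19 and Krt7 fell while Krt20 rose (from 5.38 ± 1.65 to 11.9 ± 1.22 FPKM). Whether a change in the mix of cells had a part in these levels was not tested; in bulk RNA fewer cells of a type and less RNA per cell cannot be told apart.

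Over the 24 MEF libraries the gene whose level tracked Cldn4 most closely was Atxn10 (Pearson r = 0.961), then Atg12 (0.96) and Nnat (0.953), out of 7788 genes. For Epcam it was Scin (0.993), an actin-severing protein, then Doc2b (0.991) and Atg9b (0.99). These correlations describe libraries that share kinase and day.

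In liver 5 members were expressed: Cdh1, Cdh2, Cldn1, Cldn2 and Cldn3. The other 5 stayed below 1 FPKM in every library, Cldn4 at or under 0.507 FPKM with either kinase, below every colon library and below the highest untreated MEF library (0.986). E-cadherin fell in the GFP cells of kinase mice and was not called in the mCherry cells, while N-cadherin fell in both colours under both kinases. Cldn1 fell in GFP cells under both kinases and in caMKK6 mCherry cells, where the calls rest on 1 animal, and did not pass in caMEK1 mCherry cells. In mouse liver E-cadherin is mainly periportal, N-cadherin is found across the lobule and Cldn2 lies toward the central vein.

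Cdh1 in caMEK1 GFP cells held 44.6, 35.6 and 39.1 FPKM without doxycycline and 13.6, 14.9 and 22.6 FPKM with it. In caMKK6 GFP cells it held 50.0, 35.0 and 53.2 FPKM without and 16.9 and 19.2 FPKM with doxycycline. Neither pair of groups overlapped, and mean levels on doxycycline were 0.428 and 0.392 times those without (limma log2 -1.20 ± 0.20, adjusted p = 0.00031, and -1.29 ± 0.23, adjusted p = 0.0017). Control GFP cells held 51.0, 47.4 and 43.1 FPKM without doxycycline and 29.0 and 46.5 with it, which overlapped (-0.35 ± 0.23, adjusted p = 1). Against these control GFP cells on doxycycline, the differences were -1.10 ± 0.23 (adjusted p = 0.0019; 37.2% of all genes called) and -0.99 ± 0.25 (adjusted p = 0.017; 15% called). Median scaling ended both calls (adjusted p = 0.073 and 0.062), as did leaving out control replicate 2 (adjusted p up to 0.17), and the caMKK6 call also went without its replicate 1. With quantile normalization the caMEK1 fall of Cdh1 against untreated cells was -0.55 and did not pass (adjusted p = 0.067).

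In the mCherry cells of the same mice Cdh1 held 51.4, 50.3 and 57.2 FPKM (caMEK1) and 58.1 and 56.3 FPKM (caMKK6), beside 50.9 and 52.8 FPKM in control mCherry cells. The difference from control was 0.03 ± 0.23 (adjusted p = 0.94) and 0.14 ± 0.25 (adjusted p = 0.7). Between the colours of the same animals Cdh1 was higher in mCherry cells in 3 of 3 caMEK1 animals (1.61 ± 0.20, adjusted p = 9.5e-05) and 2 of 2 caMKK6 animals (1.61 ± 0.25, adjusted p = 0.0013). In control mice the same gap was 0.49 ± 0.25 (2 of 2 animals, adjusted p = 0.3). The caMEK1 gap minus the control gap was 1.13 ± 0.32, at the threshold (adjusted p = 0.05; 0.0026 with the animal as a block), and the caMKK6 gap minus the control gap was 1.13 ± 0.35 (adjusted p = 0.051; 0.0034 with the block); 5.36% and 9.75% of all genes were called in these contrasts. The caMEK1 value did not pass in 9 of 10 runs that left out 1 library (0.79 to 1.46, adjusted p up to 0.22), nor with median scaling (0.68, adjusted p = 0.32), quantile normalization (adjusted p = 0.15), voom (0.062) or no filter (0.054). Control GFP cells, which enter this difference, are the libraries that held mCherry RNA; its part was not tested.

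N-cadherin in mCherry cells held 5.89, 8.54 and 6.79 FPKM in caMEK1 mice and 8.39 and 13.4 in caMKK6 mice, all below the 18.4 and 16.7 FPKM of control mice. It fell by 1.21 log2 units in caMEK1 (SE 0.22, adjusted p = 0.00053) and by 0.68 in caMKK6 (SE 0.24, adjusted p = 0.034). In GFP cells Cdh2 went from 18.3, 14.2 and 14.5 FPKM to 6.31, 6.65 and 7.47 in caMEK1 mice (-1.08 ± 0.19, adjusted p = 0.00047). In caMKK6 GFP cells it went from 16.8, 16.3 and 18.9 to 6.42 and 11.7 FPKM (-0.92 ± 0.22, adjusted p = 0.0089). All of these groups were apart, and control GFP cells held 13.1 to 17.3 FPKM with and without doxycycline. The ratio of Cdh1 to Cdh2 was 5.89 to 8.74 in caMEK1 mCherry cells and 4.21 to 6.92 in caMKK6 mCherry cells, against 1.64 to 3.53 in all 7 other liver groups.

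Cldn1 was at 25.1 to 40.6 FPKM in untreated and control hepatocytes. It held 18.0, 9.90 and 12.6 FPKM in caMEK1 GFP cells on doxycycline (-1.37 ± 0.37, adjusted p = 0.0082) and 24.5, 12.6 and 18.3 in caMEK1 mCherry cells (-1 ± 0.42, adjusted p = 0.086; 0.041 with the animal as a block). In caMKK6 mice animal 1 held 6.13 FPKM in GFP and 6.72 in mCherry cells, and animal 2 held 19.0 and 22.1. All of these values lie below those of the reference groups, and the caMKK6 animals differ from each other by more than the second differs from control. The caMKK6 falls of Cldn1 (-1.54 ± 0.42, adjusted p = 0.018, in GFP cells and -1.50 ± 0.46, adjusted p = 0.017, in mCherry cells) rest on animal 1: without its library they were -0.80 and -0.71 and did not pass (adjusted p = 0.38 and 0.29). With quantile normalization the falls of Cldn1 in GFP cells did not pass in caMEK1 (-0.76, adjusted p = 0.18) or caMKK6 mice (-1.31, adjusted p = 0.055). The call in caMKK6 mCherry cells also went without either control replicate, and that in GFP cells without untreated caMKK6 replicate 1. The same 3 runs ended the caMKK6 mCherry call of Cdh2 (-0.98 to -0.37, adjusted p up to 0.33), and leaving out animal 1 ended its GFP call (-0.53, adjusted p = 0.25). Animal 1 also had the lower MKK6 transgene in mCherry cells, 216 against 1211 FPKM.

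**Figure D3:**
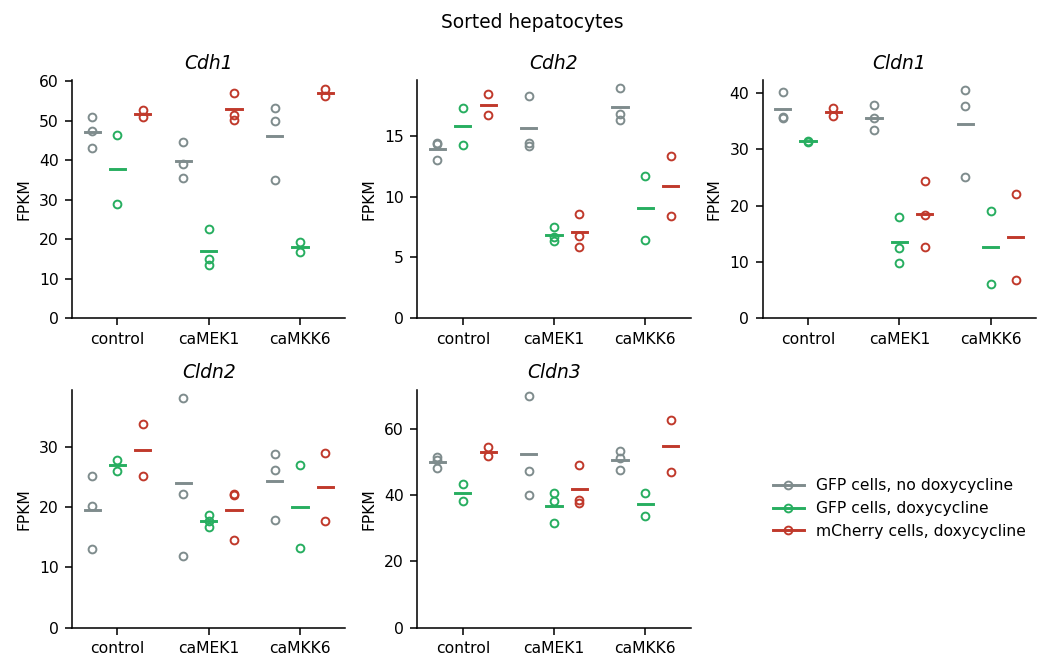
FPKM of Cdh1, Cdh2, Cldn1, Cldn2 and Cldn3 in sorted hepatocytes of control, caMEK1 and caMKK6 mice, with 1 circle per library and a bar at the group mean, in grey for GFP cells without doxycycline, green for GFP cells with it and red for mCherry cells with it. Green Cdh1 values of both kinase mice lie at 13.6 to 22.6 FPKM under red values of 50.3 to 58.1, while Cdh2 and Cldn1 are low in green and red alike.

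By limma without a block, Cldn2 and Cldn3 were not called in any liver comparison. Cldn2 ranged from 11.9 to 38.3 FPKM and Cldn3 from 31.5 to 69.8 over all 23 liver libraries, and groups overlapped widely. The estimates for caMEK1 mCherry against control cells were -0.57 ± 0.39 (adjusted p = 0.31) and -0.35 ± 0.21 (adjusted p = 0.24). Cldn3 in caMEK1 GFP cells with against without doxycycline was at -0.47 ± 0.19 (adjusted p = 0.059), and voom called it (adjusted p = 0.049), as did limma without untreated replicate 3 (-0.64, adjusted p = 0.021). In caMKK6 mice the gap of Cldn3 between mCherry and GFP cells was 0.54 ± 0.23 (adjusted p = 0.19), which passed with the animal as a block (adjusted p = 0.024).

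In mCherry cells 1 of 5 tested members was called in caMEK1 mice (27.1% of all genes, 16.3% lower) and 2 of 5 in caMKK6 mice (38.2%, 9.29% lower), all lower. In GFP cells on doxycycline 3 of 5 were called lower under either kinase, against 38.5% of all genes called in caMEK1 mice (32% lower) and 19% in caMKK6 mice (13.8% lower). Between colours 1 of 5 was called in each kinase, as higher, against 4.71% of all genes in caMEK1 (3.75% higher) and 4.28% in caMKK6 mice (3.99% higher). In control mice limma and voom called none of the 5 for doxycycline (0.0868% of all genes) or between colours (0.106%), and none had an unadjusted p under 0.05. Between caMEK1 and caMKK6 mCherry cells none was called by limma or voom, where 31.7% of all genes were; Cdh2 had an unadjusted p under 0.05 (-0.54 ± 0.22, adjusted p = 0.066; 0.05 with the block). These contrasts carried shifts of all genes: the median gene moved by -0.25 log2 units in caMEK1 GFP cells, 0.25 in caMKK6 against control mCherry cells, 0.20 between colours in caMKK6 and -0.25 in control mice, and -0.31 between kinases. Against control GFP cells on doxycycline the median gene moved by -0.37 (caMEK1) and -0.18 (caMKK6). In the colour gap minus that of control mice it moved by 0.31 (caMEK1) and 0.44 (caMKK6), the direction of the Cdh1 gaps. The kinase comparisons with control mCherry cells share their control libraries.

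Markers of other cells moved with some of these groups. The 6 macrophage markers summed to 36.5 to 333 FPKM in caMEK1 GFP cells on doxycycline and 27.3 to 130 in caMKK6 GFP cells, against 8.33 to 76.5 in the untreated kinase groups. Control GFP cells on doxycycline, where Cdh1 was not called, held 54.1 to 176 FPKM. The 6 endothelial markers summed to 13.9 to 105 and 39.1 to 82.4 FPKM in the kinase GFP cells, against 15.0 to 49.2 untreated. The 6 hepatocyte markers summed to 70390 to 81300 FPKM in caMEK1 GFP cells and 27440 to 33030 in caMKK6 GFP cells, against 43460 to 52940 and 42660 to 46740 in their untreated groups, so the fall of Cdh1 went with a higher hepatocyte sum in caMEK1 and a lower one in caMKK6 mice. In caMEK1 mCherry cells the 7 cholangiocyte markers summed to 31.7 to 118 FPKM against 12.7 to 17.03 in control mCherry cells, mostly Spp1, with Krt7 at or under 0.191 and Cftr at or under 0.0461 FPKM in all liver libraries. The goblet list, here nearly all Tff3, summed to 187 to 243.6 FPKM in caMEK1 mCherry cells against 2.64 to 2.87 in control mCherry cells, and to 27.5 to 76.6 in caMEK1 GFP cells against 1.81 to 4.93 untreated, with Muc2 at or under 0.708 FPKM in liver. The part of these markers in the junction results was not tested.

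In mCherry hepatocytes other junction genes were also measured (levels are means ± SD, n = 3 for caMEK1 and 2 for the others). Among 22 tight junction partners 3 rose and 4 fell in caMEK1 cells and 12 rose and 1 fell in caMKK6 cells, where 27.1% and 38.2% of all genes were called. The scaffold Tjp3 (ZO-3) fell under both, by 1.42 and 1.90 on the log2 scale. The tricellular protein Marveld2 rose under both (0.87 ± 0.31 and 1.41 ± 0.34). Cxadr was 13.7 ± 1.18 FPKM in caMEK1 and 60.8 ± 13.3 in caMKK6 mCherry cells, around the control value of 26.7 ± 1.73 (difference -2.06 ± 0.20, adjusted p = 1.2e-06). Cdh17, the liver-intestine cadherin, rose from 0.00912 to 7.18 ± 0.836 FPKM in caMEK1 cells, and Cldn14 from 7.79 ± 0.766 to 27 ± 12.2. In caMKK6 cells the desmosomal cadherin Dsc2 rose from 11 ± 0.347 to 84.2 ± 29.0 FPKM and Jup (plakoglobin) from 5.16 ± 1.03 to 19.2 ± 7.95. Prostasin (Prss8), a protease that acts with matriptase, rose under both, from 1.25 ± 0.206 to 3.97 ± 1.31 and 15.5 ± 3.93 FPKM. In GFP cells of caMEK1 mice 10 of the 22 partners fell and 2 rose, and 3 of 5 desmosomal genes fell. There 38.5% of all genes were called, 32% as lower, and the median gene moved by -0.25. Over all groups the gene closest to Cdh1 in its 26 group means was Ceacam1 (r = 0.989), another adhesion molecule of hepatocytes and gut.

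In colon the makeup of the claudins differed in mCherry cells of kinase mice. Cldn4 rose under both kinases, most in caMEK1 cells, where the pore-forming Cldn2 and Cldn15 and the sealing Cldn8 fell and Cldn7 rose. By limma without a block, E-cadherin and Epcam were not called in any colon comparison, and no member was called in GFP cells with against without doxycycline. Epcam was called under some alternatives, given beside its values.

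Cldn4 held 14.3 and 15.3 FPKM in control mCherry cells, 314 and 594 in caMEK1 mCherry cells, and 153, 155 and 102 in caMKK6 mCherry cells. No group overlapped with another, and mean levels were 30.6-fold and 9.21-fold above control (limma log2 4.78 ± 0.51, adjusted p = 3.3e-06, and 3.09 ± 0.46, adjusted p = 0.00021). In the GFP cells of the same mice Cldn4 held 45.6 and 80.6 FPKM (caMEK1) and 46.2, 24.6 and 16.3 (caMKK6). In the same order these libraries held 12.28 and 28.75 FPKM of the MEK1 transgene and 116, 8.50 and 10.6 of MKK6. The part of this transgene RNA was not tested. Without doxycycline Cldn4 in GFP cells held 30.7, 22.1 and 36.8 FPKM (caMEK1), 45.3, 12.2 and 31.0 (caMKK6) and 13.8, 13.7 and 16.0 (control). The caMEK1 GFP cells on doxycycline lay above their untreated group without passing (1.03 ± 0.46, adjusted p = 0.27), and above control GFP cells on doxycycline at 24.6 and 12.4 FPKM (1.74 ± 0.51, adjusted p = 0.063; 3.7% of all genes called). Without control animal 1 the latter was 2.20 and passed (adjusted p = 0.039). Between colours Cldn4 was higher in mCherry cells of 2 of 2 caMEK1 animals (2.81 ± 0.51, adjusted p = 0.0011) and 3 of 3 caMKK6 animals (2.29 ± 0.41, adjusted p = 0.00086), and of 1 of 2 control animals (-0.23 ± 0.51, adjusted p = 1).

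The direct difference of Cldn4 between caMEK1 and caMKK6 mCherry cells was 1.68 ± 0.46 log2 units (adjusted p = 0.015), which did not pass without caMEK1 replicate 2, the higher library, or caMKK6 replicate 3 (1.22 to 2.14 over all such runs, adjusted p up to 0.21). The colour gap minus that of control mice was 3.04 ± 0.72 for caMEK1 (adjusted p = 0.024) and 2.52 ± 0.66 for caMKK6 (adjusted p = 0.043), where 3.21% and 3.11% of all genes were called. Without control animal 1 these were 2.53 and 2.01 and did not pass (adjusted p = 0.24 and 0.32). Leaving out single libraries ended the caMEK1 call in 4 of 8 runs (adjusted p up to 0.21) and the caMKK6 call in 8 of 10. In these cells the MKK6 transgene stood higher (1214 to 2648 FPKM) than the MEK1 transgene (235 to 288).

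Cldn2, a cation and water pore, held 26.3 and 16.2 FPKM in caMEK1 mCherry cells, against 61.5 and 128 in control mCherry cells and 83.0, 121 and 105 in caMKK6 mCherry cells. It was lower in caMEK1 cells than in any other colon library, by 2.05 log2 units from control (SE 0.41, adjusted p = 0.0015) and 2.25 from caMKK6 (SE 0.37, adjusted p = 0.00034). Their own GFP cells held 57.0 and 46.9 FPKM, a gap of -1.28 ± 0.41 (adjusted p = 0.042; 0.066 without the filter, 0.051 with median scaling and 0.073 with quantile normalization). That gap also did not pass without caMEK1 GFP replicate 1 or 2 or mCherry replicate 2 (-1.61 to -0.95, adjusted p up to 0.43). In caMKK6 mice the gap ran the other way, with GFP cells at 46.3, 59.4 and 66.2 FPKM (0.83 ± 0.33, higher in mCherry in 3 of 3 animals, adjusted p = 0.08; 0.0045 with the animal as a block).

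Cldn15, the main intestinal sodium pore, held 30.9 and 16.2 FPKM in caMEK1 mCherry cells against 41.5 and 121 in control mCherry cells. These groups are apart by little, as control animal 1 is low (-1.62 ± 0.48, adjusted p = 0.022). The call did not pass without control replicate 2 or caMEK1 replicate 2 (-2.38 to -0.86, adjusted p up to 0.3). In caMKK6 mCherry cells, at 41.9, 54.7 and 54.1 FPKM, Cldn15 was not called (-0.50 ± 0.44, adjusted p = 0.45), and without control animal 1 it was (-1.26, adjusted p = 0.039).

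Cldn8, a sealing claudin of the distal colon, held 13.8 and 5.74 FPKM in caMEK1 mCherry cells, against 72.4 and 41.7 in control, 31.1, 55.7 and 41.2 in caMKK6 mCherry cells, and 40.3 and 66.0 in the GFP cells of the same caMEK1 mice. Both libraries lay below the range of all other colon libraries, 28.5 to 72.4 FPKM. It fell by 2.49 log2 units from control (SE 0.41, adjusted p = 0.00031), was lower than in caMKK6 (-2.09 ± 0.38, adjusted p = 0.00074) and lower than in GFP cells (-2.40 ± 0.41, adjusted p = 0.0008). The colour gap minus that of control mice was -2.83 ± 0.58 (adjusted p = 0.012), and -2.72 without control animal 1 (adjusted p = 0.091). It also did not pass without caMEK1 mCherry replicate 2 or control mCherry replicate 1 (-3.40 to -2.26 over all such runs, adjusted p up to 0.13).

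Cldn7 and Cldn3 were the most abundant of the 7 claudins in colon, except in caMEK1 mCherry replicate 2, where Cldn4 was highest (594 FPKM). Cldn7 held 534 and 561 FPKM in caMEK1 mCherry cells, above all other colon libraries, with 332 and 297 in control and 345, 312 and 271 in caMKK6 mCherry cells. It rose by 0.80 ± 0.22 log2 units from control (adjusted p = 0.015) and was 0.83 ± 0.20 above caMKK6 (adjusted p = 0.007). The rise did not pass without control replicate 2 or caMEK1 replicate 2 (0.72 to 0.88, adjusted p up to 0.11), nor the difference between kinases without the latter (adjusted p = 0.07). Against its GFP cells, at 329 and 364 FPKM, the gap was 0.66 ± 0.22 (adjusted p = 0.054; 0.0031 with the animal as a block). Cldn3 held 578 and 436 FPKM in caMEK1 mCherry cells beside 384 and 271 in control cells (0.64 ± 0.33, adjusted p = 0.17). Without control animal 1, which had the higher value, the estimate was 0.89 and passed (adjusted p = 0.035).

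Epcam, the partner of Cldn7, held 800.1 and 861 FPKM in caMEK1 mCherry cells and 560 and 587 in the GFP cells of the same mice, the ends of its range in colon. Its difference from control was 0.24 ± 0.18 (adjusted p = 0.38), and between colours it was 0.53 ± 0.18 (adjusted p = 0.059). That gap passed with the animal as a block (0.0043), with voom (0.038) and with quantile normalization (0.0072). Quantile normalization also called Epcam lower in GFP cells on doxycycline, by 0.69 log2 units in caMEK1 (adjusted p = 0.049) and 0.61 in caMKK6 mice (adjusted p = 0.042). Cdh1 ranged from 209 to 450 FPKM over all colon libraries, with -0.08 ± 0.22 in caMEK1 (adjusted p = 0.83) and -0.35 ± 0.20 in caMKK6 mCherry cells (adjusted p = 0.24).

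**Figure D4:**
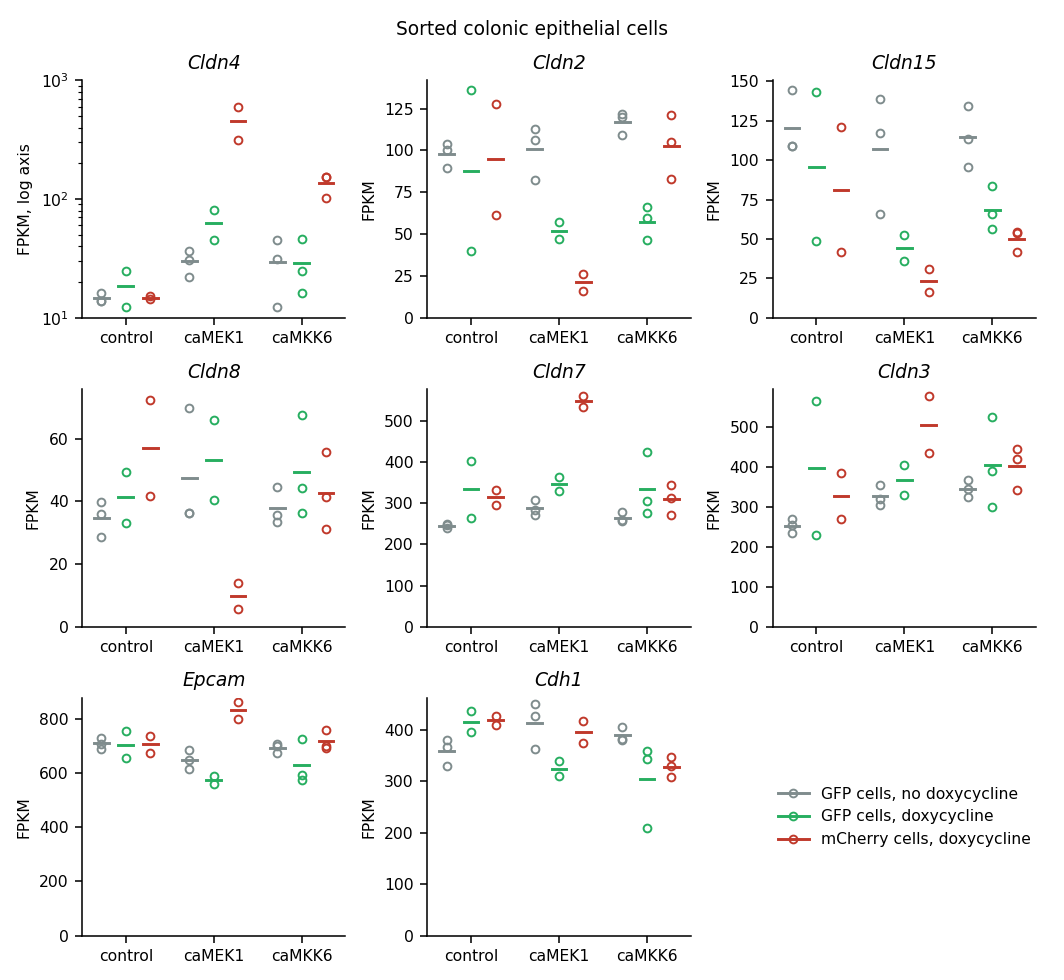
FPKM of the 8 members expressed in sorted colonic epithelial cells of control, caMEK1 and caMKK6 mice (Cldn4 on a log axis, the others from 0), with 1 circle per library and a bar at the group mean, coloured by cell colour and doxycycline. The red caMEK1 circles are at the top for Cldn4 (314 and 594 FPKM) and Cldn7 (534 and 561) and at the bottom for Cldn2, Cldn15 and Cldn8.

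Expressed as a share of the summed FPKM of the 7 claudins, Cldn4 made up 21% and 36.4% in caMEK1 mCherry cells and 11.1% to 14.2% in caMKK6 mCherry cells. In the other 7 colon groups it made up 1.35% to 8.71%, the upper end in caMEK1 GFP cells. In caMEK1 mCherry cells Cldn2 made up 0.996% and 1.75%, Cldn15 0.993% and 2.06% and Cldn8 0.352% and 0.923%. Shares sum to a fixed total, so a rise of one lowers the others; the FPKM values above show that Cldn2, Cldn15 and Cldn8 were also lower in level.

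**Figure D5:**
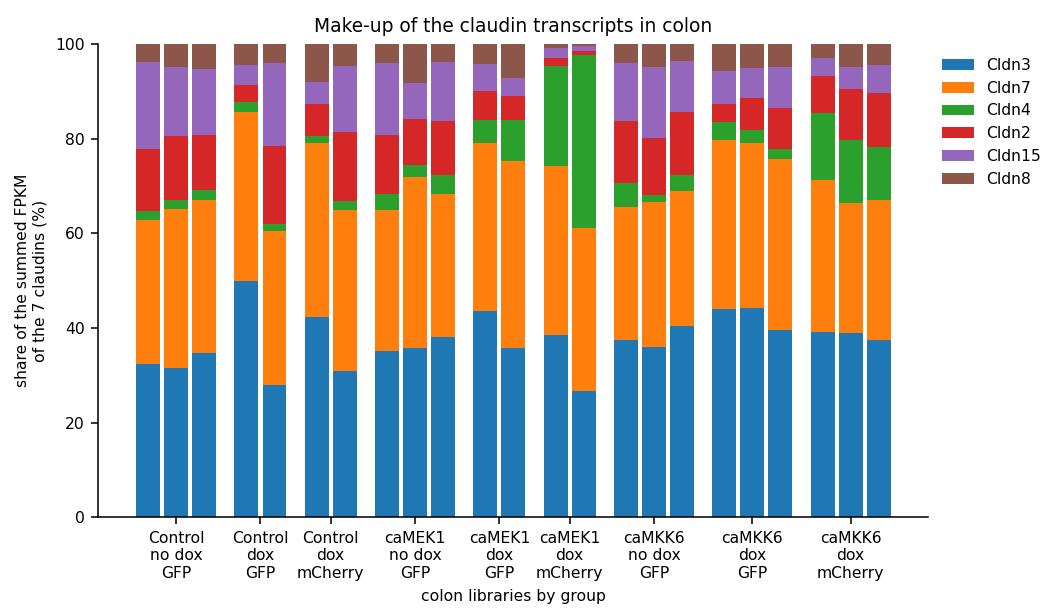
Share (%) of the summed FPKM of the 7 claudins taken by each claudin in each colon library, stacked to 100% and grouped by mouse, doxycycline and cell colour (Cldn1 is too low to be drawn). Cldn4 takes 21% and 36.4% in the caMEK1 mCherry libraries and 11.1% to 14.2% in the caMKK6 mCherry libraries, and at most 8.71% elsewhere.

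Of the 8 members tested in colon, 5 were called in caMEK1 mCherry cells against control (2 higher, 3 lower), where 21.5% of all genes were called (9.54% higher, 12% lower). In caMKK6 mCherry cells 1 of 8 was called (20.8% of all genes), namely Cldn4, a share under that of all genes. Between the kinases 4 of 8 were called (20.7%). Between colours 3 of 8 were called in caMEK1 mice (13.4%), 1 of 8 in caMKK6 mice (21.3%) and none in control mice (0.0866%), where limma and voom called none and none had an unadjusted p under 0.05. With the animal as a block the calls between colours went from 4 to 8, adding Cldn7, Cldn15 and Epcam in caMEK1 and Cldn2 in caMKK6 mice. The same control mCherry libraries serve both kinase comparisons.

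For GFP cells with against without doxycycline, limma and voom called 0 of 8 members in any mouse. At an unadjusted p under 0.05 there were 3 in caMEK1 mice (Cldn15, Cldn2 and Cldn4; 1.33% of all genes called), 2 in caMKK6 mice (Cdh1 and Cldn2; 2.6% called) and 0 in control mice (0% called). The largest estimates were -1.22 ± 0.44 for Cldn15 in caMEK1 (adjusted p = 0.17) and -1.03 ± 0.33 for Cldn2 in caMKK6 cells (adjusted p = 0.095). In control GFP cells on doxycycline animal 1 held 40.0 FPKM of Cldn2 and 48.8 of Cldn15 and the other animal 136 and 143. With animal 1 as the only treated library, Cldn2 (-1.27), Cldn3 (1.16) and Cldn7 (0.71) were called in control mice. These mice carry no active kinase.

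Markers of colonic cell types differed between the same groups. The 6 goblet markers summed to 645 and 798 FPKM in caMEK1 mCherry cells, against 2090 to 5147 in control, 6164 to 7738 in caMKK6 mCherry cells and 5857 to 6400 in caMEK1 GFP cells. Against control 5 of 6 fell, where 12% of all genes were called lower. The 7 colonocyte markers summed to 9254 and 9762 FPKM against 4716 to 6380 in control. Of these 4 of 7 rose (9.54% of all genes were called higher), among them Krt20 (174 ± 57.4 to 1160 ± 371 FPKM) and Cdh17 (179 ± 18.8 to 425 ± 93.3). In caMKK6 mCherry cells, where Cldn4 was also high, 3 goblet markers rose and no colonocyte marker was called, with a colonocyte marker sum of 4800 to 7978 FPKM. There 20.8% of all genes were called. Krt7, a keratin from the cholangiocyte list, rose in both, from 15.4 ± 6.92 FPKM in control to 190 ± 106 in caMEK1 and 56.4 ± 11.1 in caMKK6 mCherry cells. Endothelial and lymphocyte markers were not expressed (Pecam1 at or under 0.559 FPKM). The part of these markers in the claudin levels was not tested.

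Among other junction genes of caMEK1 mCherry colon cells, 21 tight junction partners were tested. Of these 5 rose and none fell, where 21.5% of all genes were called and 9.54% as higher, with the polarity gene Pard6b at 83.3 ± 26.1 against 15.7 ± 1.46 FPKM (log2 2.30 ± 0.33), Crb3 (1.04 ± 0.24), Ildr1 (1.02 ± 0.17) and F11r (0.87 ± 0.22). Of 7 desmosomal genes 4 rose and none fell, led by Pkp3 (1.17 ± 0.27). Matriptase (St14) and its inhibitor Spint1 rose by 0.67 ± 0.19 and 1.16 ± 0.21. Cldn12, which is found in many tissues, fell by 1.00 in these cells, and by 0.54 in caMEK1 MEFs and 0.73 in caMEK1 mCherry hepatocytes. In caMKK6 mCherry cells 1 of the 21 partners rose (Lsr, 0.72 ± 0.22), where 20.8% of all genes were called. The epithelial factor Grhl3 rose under both kinases (1.48 ± 0.34 and 1.74 ± 0.31).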

How the data were processed

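Bulk messenger RNA of 70 libraries in 26 groups was analysed from 1 table of FPKM values deposited by the authors. Per the submitters' processing notes, reads were trimmed with cutadapt 1.12 and aligned to mm10 with STAR 2; the counting tool and annotation are not given in the sources used here. With exon lengths from GENCODE release M21 (21191 of 21859 genes), all values under 1000 reads were whole reads within 0.02, which gave the depths. Groups came from the labels. Each tissue had 1 fit with limma 3.58.1 (eBayes with a trend, two-sided, R 4.3.3) on log2(FPKM + 1). Genes had to reach 1 FPKM in 3 MEF libraries or in 2 libraries of a tissue, which left 11347, 10371 and 11542 genes in MEFs, liver and colon. Residual degrees of freedom were 16 in MEFs and 14 in each tissue. A call is a Benjamini-Hochberg adjusted p under 0.05 over all genes of a fit.

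The labels tie both colours to 1 animal, and paired libraries deviated together (r of 0.396 to 0.817, 7 of 7 pairs in each tissue). In groups of 2 libraries both pairs give the same r by construction, so these pairs are not all independent. MEF replicate numbers paired within a genotype (36 of 36 pairs over 0.1, from 0.112 to 0.803) and not across (2 of 48). The members, gene lists and tests were chosen with earlier results of these data known. From each list up to 4 called genes with the largest change are named, and the 10 members always. Alternatives are given in the closing section; scripts were tested on simulated data. Tables were handled with Python 3.11.15 and pandas 2.3.3. Promoters are from RefSeq; those of Cldn8, Cdh1 and Cdh2 were not used here. Some genes of the lists are not reported here.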

Additional observations from a re-analysis of the deposited data

Results flagged for a closer look

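In MEFs, the caMEK1 change minus the caMKK6 change, tested as a contrast in limma, passed for Cdh1 at day 2 (log2 1.245), day 4 (1.733) and day 7 (1.534) and for Epcam at the same days (1.38, 2.275 and 2.552). It passed in the other direction for Cldn3 at all 3 days (-1.145, -1.962 and -1.977) and for Cldn4 at days 2 and 4 (-3.004 and -2.297).

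In tissues, the gap between mCherry and GFP cells of the same animals differed from that of control mice, again tested as a contrast, for Cdh1 in caMEK1 liver (1.126), Cldn4 in caMEK1 colon (3.04) and caMKK6 colon (2.52), and Cldn8 in caMEK1 colon (-2.828). Leaving out single libraries ended the Cdh1 call in 9 of 10 runs, the caMKK6 Cldn4 call in 8 of 10, the caMEK1 Cldn4 call in 4 of 8 and the Cldn8 call in 2 of 8, and none of the 3 colon calls passed without control animal 1.

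Outside the comparisons, the MEK1 transgene appeared in libraries of caMKK6 MEFs, at up to 16.53 FPKM, where none is due from the labels. mCherry RNA appeared in GFP hepatocytes of control mice on doxycycline, at up to 749.6 FPKM, against at most 0.112 FPKM in control GFP hepatocytes without doxycycline.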

How the results depend on the processing

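No called estimate changed sign under any alternative. Counted over each family of comparisons, the 8 calls in caMKK6 MEFs became 5 without the libraries that held the MEK1 transgene, the 6 in liver GFP cells became 3 with quantile normalization, and the 4 between colon colours became 8 with the replicate block (the animal). The 0 calls in colon GFP cells became 2 with quantile normalization, both of Epcam (-0.69 in caMEK1 and -0.61 in caMKK6), and the 0 between liver mCherry cells of the kinases became 1 with the replicate block. With each library left out in turn, the counts ran from 9 to 9 in caMEK1 MEFs, 7 to 9 in caMKK6 MEFs and 11 to 14 for their difference. In liver they ran from 1 to 3 for kinase against control mCherry cells (1 without either control library or caMKK6 replicate 1), 4 to 7 in GFP cells, 2 to 2 between colours and 0 to 1 between kinases. In colon they ran from 4 to 6, 0 to 3 (3 in control mice without replicate 2), 3 to 4 and 2 to 4 (2 without caMEK1 mCherry replicate 2) in the same order. Of the 54 calls of the planned comparisons, median scaling ended 1, no filter 2, a pseudocount of 0.1 1, quantile normalization 4 and voom 3; the replicate block ended none and added 8, or 7 within MEF genotypes. Of the calls against control GFP cells and of colour gaps against control, median scaling ended 7 and quantile normalization 7. No filter ended 4, a pseudocount of 0.1 ended 1 and voom ended 1. Leaving out single libraries ended 9 of these calls in at least 1 run. The liver call of Cdh2 in caMEK1 GFP cells against control GFP cells on doxycycline was not among them. The transgene libraries, the control animal, the block within genotype, the comparisons with control GFP cells and the colour gaps against control were chosen after seeing the data. Groups of 2 and 3 libraries, and few reads for Cdh1, Epcam and Cldn3 in untreated MEFs, limit the precision.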
